A study of Saccharomyces cerevisiae with 12 samples.

Results

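The response of yeast to NaHS given late in culture was set against its response to NaHS given early, gene by gene. The measure was the late NaHS effect minus the early NaHS effect, where an effect is the log2 difference of NaHS and control libraries within a stage. A gene entered where it was listed in both deposited tables, had a mean of at least 10 in each and had no 0 in any of the 12 libraries. This left 3182 genes of 7126 rows found in both tables. Among the genes just inside the limit were YAP3, YLR456W and ASK10, with early means of 10.01, 10.01 and 10.02 TPM, and among those just outside it were YER189W and GPX2, with early means of 9.91 and 9.93 TPM, and TAX4, with a late mean of 9.92 FPKM.

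All cells were Saccharomyces cerevisiae BY4742, a haploid laboratory strain of mating type alpha with deletions in HIS3, LEU2, LYS2 and URA3, grown in synthetic dextrose complete medium. In water NaHS gives off hydrogen sulfide. There were 3 libraries in each of 4 groups: NaHS given more than 72 h after inoculation (late NaHS), untreated cultures of that stage (late control), NaHS given less than 72 h after inoculation (early NaHS) and untreated cultures of that stage (early control). The dose and the length of exposure are not given, and nothing states that a group's libraries were grown apart. Every p therefore measures the spread between these libraries, which may be technical.

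Hydrogen sulfide is both a product of yeast metabolism and a toxicant. Sulfate is reduced to sulfide, which Met17 fixes into homocysteine on the way to methionine and cysteine, while sulfide from outside binds the heme and copper of cytochrome c oxidase and forms poorly soluble salts with copper and iron. Yeast in glucose medium first ferments, then respires the ethanol it made, and then stops dividing, so the stages of a culture differ in which of these pathways are in use.

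The early values were TPM and the late values FPKM, both scaled for gene length, and they were normalized separately. Levels were therefore never compared between stages, and each stage served as its own baseline. Stage, unit and table still changed together, so in the late minus early difference they cannot be told apart. Among rows with a mean of at least 1 in each table, 119 to 171 were at 0 per late library and 19 to 33 per early library. The alpha-factor gene MF(ALPHA)1 was listed in every library (24.8 to 121 FPKM late, 54.8 to 110 TPM early), while MF(ALPHA)2 was at 0 in every late library and at 1.37 to 9.75 TPM early. STE3, specific to alpha cells, was at 7.82 to 21.1 FPKM late and 3.3 to 8.72 TPM early. SAG1, also specific to alpha cells, was at 11.8 to 24.8 FPKM late and 11.3 to 21.3 TPM early. Of the genes specific to a cells, MFA1 and MFA2 were at 0 throughout, and STE2, AGA2 and BAR1 were at 0 late but at 4.19 to 15.35 TPM, 0.81 to 7.23 TPM and 1.34 to 1.95 TPM early. Early STE3 thus ranged no higher than early STE2. LEU2, LYS2 and URA3 were at 0 throughout. HIS3, by contrast, was listed at 115 to 522 FPKM late and 301 to 345 TPM early. The size factors of the early NaHS libraries (0.881 to 0.933) lay below those of the early controls (1.09 to 1.11), while late NaHS libraries (0.959 to 1.03) and late controls (0.985 to 1.001) overlapped. Early NaHS library 3 stood apart from its group: its median absolute log2 distance from the other 2 was 0.396, against 0.211 and 0.227 for libraries 1 and 2. Of the late libraries, control 2 (0.377) and control 1 (0.330) stood farthest from their group. Ribosomal RNA rows held 0.259% to 0.328% of the late NaHS totals, 0.267% to 3.60% of the late control totals, 1.44% to 3.20% of the early NaHS totals and 0.757% to 1.18% of the early control totals.

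The difference between stages passed the test (limma, Benjamini-Hochberg adjusted p below 0.05 over 5165 rows fitted) in 774 of the 3182 genes, or 24.3%, of which 330 (10.4%) had a higher and 444 (14.0%) a lower effect late than early. Over all rows fitted the share was 20.4%. In 589 of the 774 the difference was at least 1 on the log2 scale. Within late cultures 607 genes passed (19.1%, against 16.2% of all rows), with 190 rises (5.97%) and 417 falls (13.1%). Within early cultures 1385 passed (43.5%, against 37.9% of all rows), with 671 rises (21.1%) and 714 falls (22.4%). The median standard error was 0.221 for a late effect, 0.161 for an early effect and 0.305 for their difference, so the late comparison was the less precise. With the values left unscaled the split of the 847 differences called was 547 higher and 300 lower, since that choice moved the median late effect to 0.01 and the median early effect to -0.28. The median effects with scaling were -0.02 late and -0.03 early. The early calls were 404 rises and 1080 falls without scaling, and the late calls were 281 rises and 373 falls with upper-quartile scaling, where the median late effect was 0.11.

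A response was called reversed where both stages passed with opposite signs and the difference passed, which held for 59 genes (1.85%, against 1.45% of all rows): 36 fell late and rose early (1.13%), and 23 rose late and fell early (0.723%). It was called lost where the early effect passed, the late effect did not, and the difference passed with the early effect the larger, which held for 364 genes (11.4%, against 9.10% of all rows), with 170 early rises (5.34%) and 194 early falls (6.10%). A gained response, the same with the stages exchanged, held for 170 genes (5.34%, against 4.94% of all rows), with 46 late rises (1.45%) and 124 late falls (3.90%). A kept response, with both stages past the threshold in the same direction, held for 265 genes (8.33%, against 6.64% of all rows), with 74 rises (2.33%) and 191 falls (6.0%). In 74 of the 265 kept responses the difference also passed, with the late effect the larger in 53 and the smaller in 21. A further 668 genes passed early alone and 111 passed late alone with no called difference, and of these it cannot be said that the stages differed. In 266 of the 364 lost responses the late value, which did not pass, had the sign opposite to the early one, as did the early value in 103 of the 170 gained responses. Both classes require a called difference, which itself favours opposite signs, so these counts show no tendency of their own. Over the 3182 genes, which share libraries within each stage, the late and early effects had a Pearson correlation of 0.276 and a Spearman correlation of 0.261.

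The counts depended on single libraries. Without early NaHS 3 the reversed genes numbered 102, of which 58 were among the 59, and without early control 2 they numbered 25, all among the 59. Reversed genes numbered 28 without early control 1, 31 without early control 3, 30 without late control 3 and 35, 36 and 35 without late NaHS 1, 2 and 3. The late calls numbered 301 without late control 3 and 340, 334 and 317 without late NaHS 1, 2 and 3. The lost responses numbered 239, 216 and 219 without early control 1, 2 and 3. The gained responses numbered 94 without late control 3, 106 and 102 without late NaHS 1 and 3 and 113 without early NaHS 3, and the kept responses 147 without late control 3 and 165, 149 and 143 without late NaHS 1, 2 and 3. The early calls numbered 2036 without early NaHS 3 and 873, 830 and 863 without early control 1, 2 and 3. The called differences stayed between 531 and 825 in all 12 such fits.

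**Figure D1:**
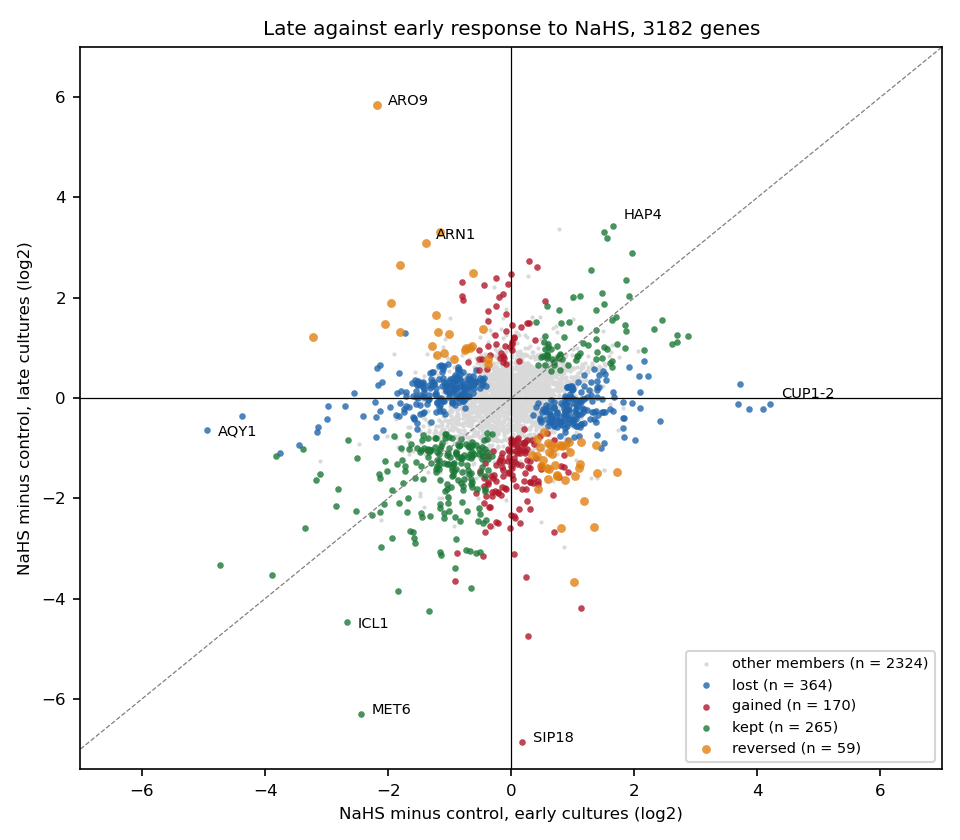
NaHS minus control on the log2 scale in late cultures (vertical axis) against early cultures (horizontal axis), 1 point per gene, coloured by class; the dashed line marks equal effects. Reversed genes lie in the upper left and lower right quadrants, lost responses farther from 0 along the early axis than along the late one and gained responses the other way, with ARO9 at 5.85 late and -2.18 early and SIP18 at -6.86 late and 0.18 early.

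Among the genes that rose late and fell early, the one with the widest swing was ARO9 (YHR137W, chromosome VIII, 375709 to 377250), the aromatic aminotransferase that opens the breakdown of phenylalanine, tyrosine and tryptophan to fusel alcohols. ARO9 had 1472, 1211 and 894 FPKM in late NaHS libraries, against 31.98, 7.30 and 27.7 FPKM in late controls, and 20.8, 23.9 and 14.5 TPM in early NaHS libraries, against 89.2, 105 and 137 TPM in early controls. Its effects were 5.85 in late cultures (SE 0.546, adjusted p = 0.00109) and -2.18 in early cultures (SE 0.223, adjusted p = 0.00113), a difference of 8.03 (SE 0.643, adjusted p = 2.58e-05). All 3 late NaHS values stood far above all 3 late controls, whereas the early NaHS values lay below every early control. Genes named by class were taken only where values did not overlap in the stages called, so such separation is no added support. The decarboxylase of the next step, ARO10, was left out for its zeros: it was listed at 49.1, 18.5 and 18.4 FPKM in late NaHS libraries and at 0 in all 3 late controls, against 5.70, 6.79 and 9.05 TPM in early NaHS libraries and 16.1, 19.8 and 25.1 TPM in early controls. Of the 4 Ehrlich pathway genes that entered, ARO9 alone had a called difference.

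The sterol-uptake regulator SUT1 (YGL162W, chromosome VII, 198138 to 199037) and the water channel AQY2 (YLL052C, chromosome XII, 35912 to 36361) moved the same way as ARO9. SUT1 had 78.7, 81.9 and 90.7 FPKM in late NaHS libraries, against 28.9, 26.5 and 31.6 FPKM in late controls, and 47.6, 43.97 and 9.27 TPM in early NaHS libraries, against 100.3, 134 and 196 TPM in early controls. Its groups did not overlap at either stage, as the choice of named genes required, and its difference was 3.52 (SE 0.676, adjusted p = 0.00475). AQY2 overlaps the neighbouring YLL053C, with which it can share reads, and its effects were 1.89 late and -1.96 early (difference 3.85 (SE 0.653, adjusted p = 0.0024)). The late rise of AQY2 lost its call without late control 1 or 3, without late NaHS 2 or 3, with a pseudocount of 0.1 and with no scaling. YLL053C changed by 1.30 late and -1.72 early, of which the late value did not pass (adjusted p = 0.0619). The early fall of SUT1 rested on all 3 controls, since it lost its call without any 1 of them.

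Of the genes that fell late and rose early, the first by the size of both effects was YMC2 (YBR104W, chromosome II, 449667 to 450656), a carrier of the inner mitochondrial membrane. YMC2 had 23.8, 25.8 and 21.999 FPKM in late NaHS libraries, against 78.3, 59.001 and 65.4 FPKM in late controls, and 68.1, 65.7 and 102 TPM in early NaHS libraries, against 26.1, 26.4 and 29.3 TPM in early controls. The groups were apart at both stages, as the choice of named genes required, and the difference was -3.20 (SE 0.279, adjusted p = 4.58e-05). CMK2, a calmodulin-dependent kinase, had 44.5, 61.6 and 65.3 FPKM in late NaHS libraries, against 337, 161 and 233 FPKM in late controls, and 122, 115 and 269 TPM in early NaHS libraries, against 81.3, 85.9 and 77.1 TPM in early controls. Its effects were -2.05 late and 1.19 early, and the early rise was lost without any 1 early control. STR3, which turns cystathionine into homocysteine, changed by -1.50 late and 1.39 early, with 15.6, 18.6 and 15.3 FPKM in late NaHS libraries against 46.7, 39.2 and 58.3 FPKM in late controls. The early rise of STR3 was lost without any 1 early control. The unnamed YPR169W-A (difference -3.92 (SE 0.640, adjusted p = 0.00196)) and the short frame YPR010C-A, named MRA1 in the reference annotation (difference -2.43 (SE 0.351, adjusted p = 0.000956)), completed the 5. Among the rest of the 36 were 8 genes of the respiratory chain and ATP synthase and 4 more of sulfur metabolism, described next.

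**Figure D2:**
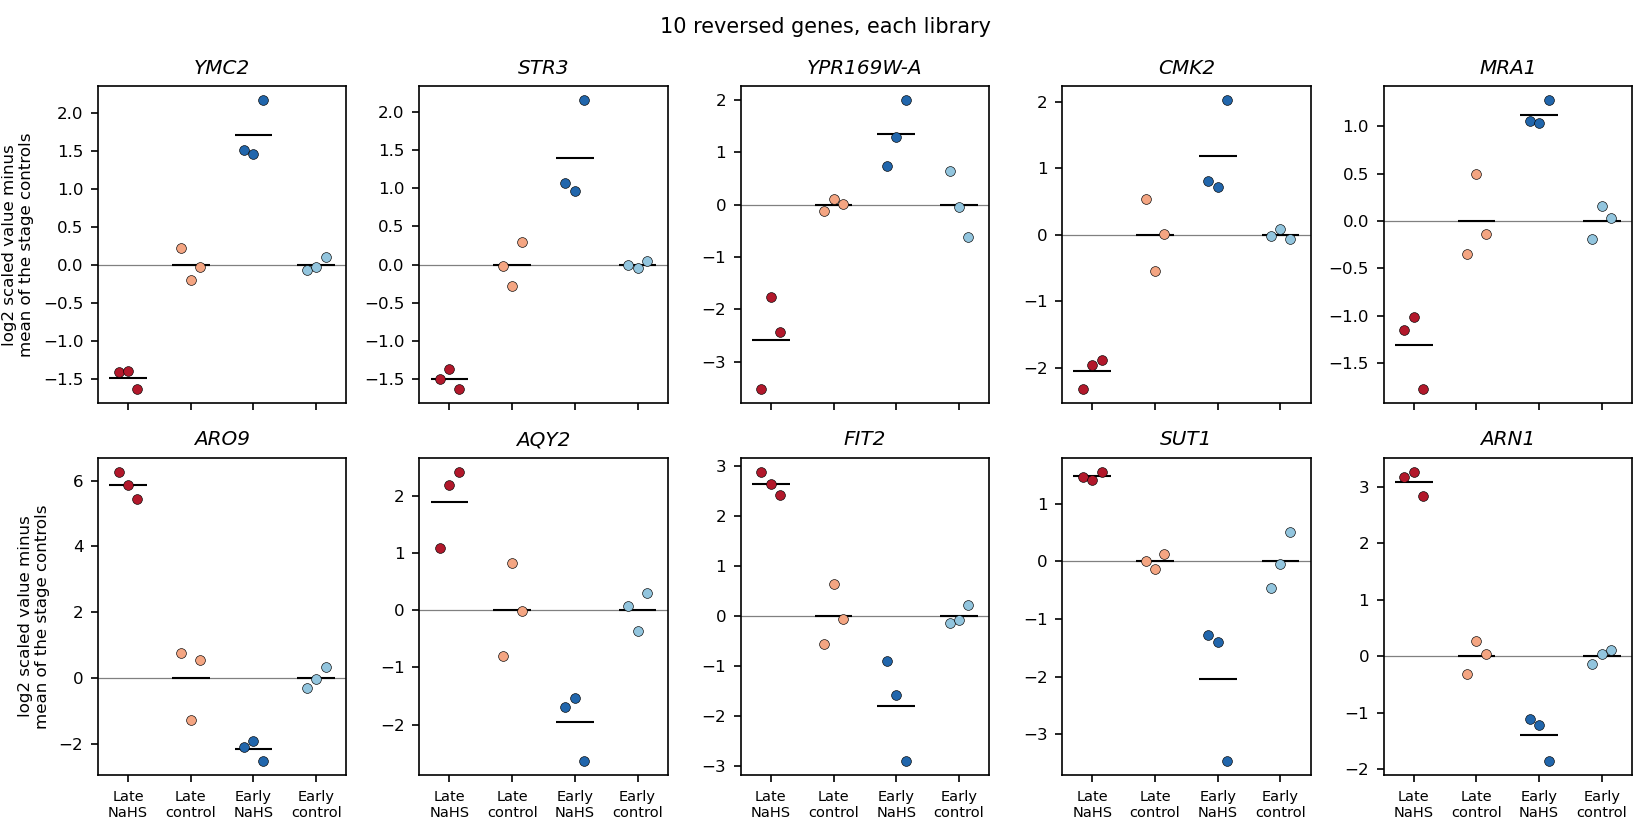
Scaled log2 value of 10 reversed genes in each library minus the mean of the 3 controls of its stage, with the group mean as a bar, in late NaHS, late control, early NaHS and early control libraries. In the upper row late NaHS lies below and early NaHS above its controls, in the lower row the opposite, and early NaHS library 3 (the right-hand early NaHS point) lies farthest from the controls of the 3 in all 10 panels.

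Many genes of the respiratory chain and ATP synthase, which pass electrons to oxygen and use the proton gradient to make ATP, were lower under NaHS late, and many were higher under NaHS early. Of 46 members of a list of 50, 19 fell and 2 rose late, 3 fell and 23 rose early, and the difference was lower in 25 and higher in 3. The list medians were -0.85 late, 0.38 early and -1.30 for the difference, against -0.02, -0.03 and -0.03 over all 3182 genes. The shares to set beside this and each later list are those over all genes. Late, 5.97% rose and 13.1% fell, early, 21.1% rose and 22.4% fell, and the difference was higher in 10.4% and lower in 14.0%. There were 8 reversed members (COR1, QCR10, COX8, COX12, ATP4, ATP5, ATP16 and INH1), 9 lost rises and 7 gained falls. In bulk RNA a lower level in each cell and fewer cells with that RNA cannot be told apart.

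The complexes are given by their counts, with no test between them. In the bc1 complex and cytochrome c, 8 of 10 genes had a lower difference, 2 fell late and 8 rose early. Those late falls numbered 5 without late control 1, 1 without late control 2 and 0 (limma) without late control 3, late NaHS 1 or late NaHS 3. In cytochrome c oxidase, the complex that reduces oxygen, 7 of 8 had a lower difference. COX7, one of its small subunits (YMR256C, chromosome XIII, 778945 to 779127), had 748, 520.3 and 643 FPKM in late NaHS libraries, against 855, 2039.8 and 1087 FPKM in late controls, and 6431, 6135 and 7508 TPM in early NaHS libraries, against 2872, 2901 and 2902 TPM in early controls. The early NaHS values of COX7 were far above the early controls, while its late NaHS values lay below all late controls with an effect of -1.0 that did not pass (adjusted p = 0.0961); the difference was -2.46 (SE 0.399, adjusted p = 0.00187). COX8 changed by -1.34 late and 0.71 early (difference -2.04 (SE 0.192, adjusted p = 7.4e-05)), and COX12 by -1.39 late and 0.58 early. QCR10, a bc1 subunit, had 501, 710.4 and 335 FPKM in late NaHS libraries, against 1079, 1904 and 1361 FPKM in late controls, and 3568, 3414 and 3767 TPM in early NaHS libraries, against 2631, 2373 and 2679 TPM in early controls, with no overlap at either stage and a difference of -2.28 (SE 0.378, adjusted p = 0.00207). In ATP synthase 8 of 15 had a lower difference, among them INH1, which blocks the enzyme when it would run backwards (effects -1.16 late and 0.42 early).

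Of the 9 dehydrogenases, which feed electrons into the chain, 5 fell and 1 rose late, 2 fell early, and the difference was lower in 2 and higher in 2. The late falls numbered 3 without late control 3, late NaHS 2 or late NaHS 3, and the early falls 7 without early NaHS 3. The succinate dehydrogenase subunits SDH2 and SDH3 fell late (-1.87 and -1.53) with early effects that did not pass (-0.32 and -0.28). The external NADH dehydrogenase NDE2 and the glycerol-phosphate dehydrogenase GUT2 fell at both stages (-2.15 late and -2.84 early for NDE2, -0.74 late and -1.68 early for GUT2), GUT2 by less late. DLD1, which oxidises D-lactate and hands the electrons to cytochrome c, had a late rise where 19 members fell. DLD1 (YDL174C, chromosome IV, 145826 to 147589) had 531, 431 and 567 FPKM in late NaHS libraries, against 72.3, 133 and 99.3 FPKM in late controls, and 238, 243 and 112 TPM in early NaHS libraries, against 396, 409 and 361 TPM in early controls. It rose by 2.32 late, and its early effect of -0.80 did not pass (adjusted p = 0.0672), giving a difference of 3.12 (SE 0.406, adjusted p = 0.000575). HAP4, part of the Hap complex and the piece that lets it switch on respiratory genes, was higher under NaHS at both stages. HAP4 had 95.2, 85.4 and 71.5 FPKM in late NaHS libraries, against 4.75, 6.07 and 9.99 FPKM in late controls, and 196, 122 and 202 TPM in early NaHS libraries, against 67.8, 54.4 and 68.9 TPM in early controls. Its rise was larger late (3.44 late and 1.66 early, difference 1.78 (SE 0.386, adjusted p = 0.00906)), in the same libraries in which 19 respiratory genes fell.

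The letters CCAAT, the core bound by the Hap complex, stood within 500 bases upstream of the annotated start in 41 of the 46 genes (89.1%), read on both strands, against 62.4% of the same window in all 6000 protein-coding genes of the R64 reference. Stretches of 120 bases, 5′ to 3′ on the gene's strand, are shown for the genes with the largest called differences that hold a match, COX7 and DLD1, which had differences of opposite sign (chrXIII:779230-779349, minus strand, for COX7; chrIV:147729-147848, minus strand, for DLD1). Capitals mark CCAAT or its reverse complement. These windows come from RefSeq's R64 assembly, the build that the submitters' processing notes name, and a match is a run of letters, not a shown site.
COX7: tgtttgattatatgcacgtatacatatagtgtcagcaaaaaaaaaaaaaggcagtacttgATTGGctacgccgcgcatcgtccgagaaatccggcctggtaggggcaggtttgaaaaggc
DLD1: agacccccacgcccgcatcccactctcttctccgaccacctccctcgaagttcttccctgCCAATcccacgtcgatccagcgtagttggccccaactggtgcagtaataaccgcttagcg

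The respiratory counts rested partly on single late libraries. The late falls numbered 7 without late control 3 and 11, 12 and 8 without late NaHS 1, 2 and 3, and the reversed genes 2, 3, 5 and 3 in the same fits and 5 without early control 2. Without early NaHS 3 there were 12 reversed, 6 kept and 8 early falls. The gained responses of the list numbered 5 without late control 3 or late NaHS 3 and 3 without early NaHS 3, against 8 with every library. The lower differences numbered between 23 and 31 in all 12 fits. COX6, a further subunit of the oxidase, was left out because it was listed at 0 in all 3 late NaHS libraries, against 86.0, 23.4 and 90.0 FPKM in late controls, with 941, 980 and 1062 TPM in early NaHS libraries and 603, 564 and 622 TPM in early controls.

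**Figure D3:**
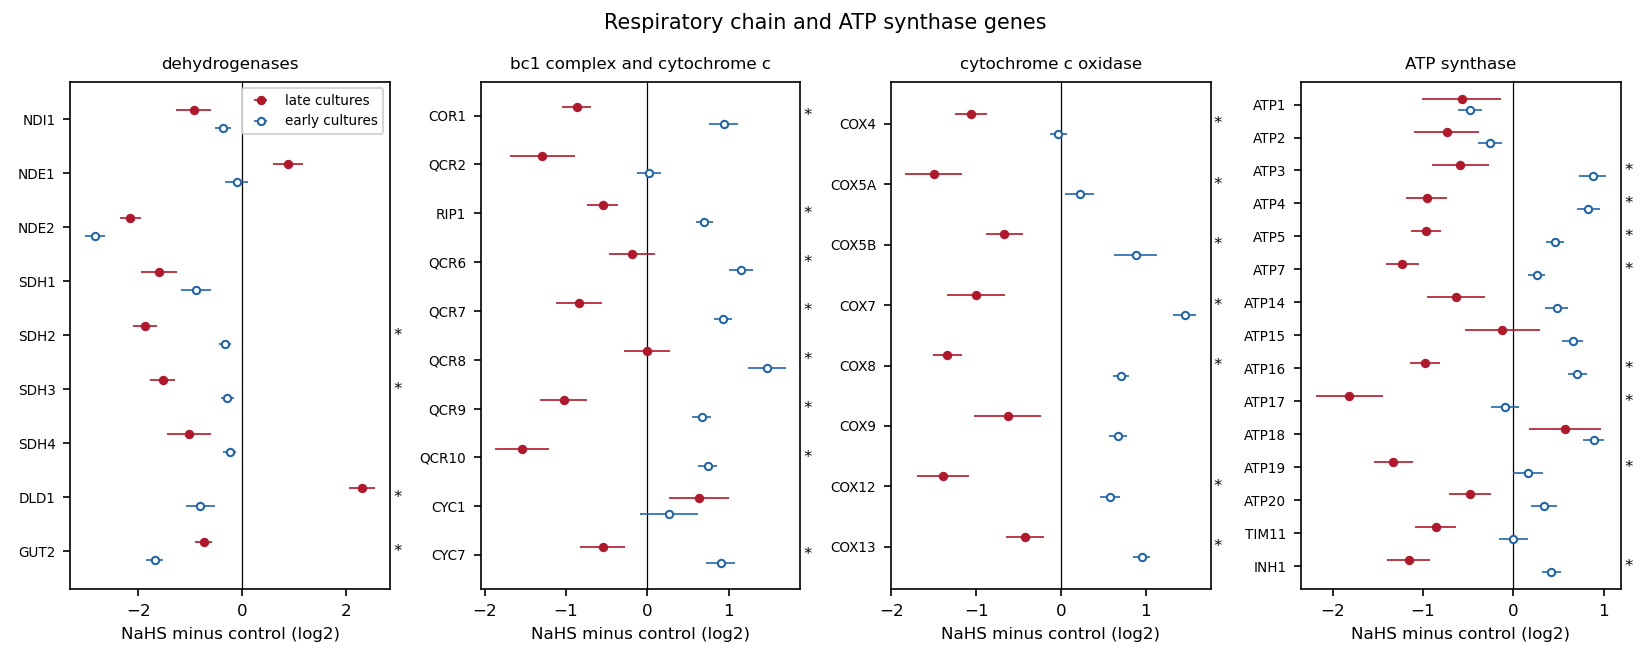
NaHS minus control on the log2 scale for respiratory chain and ATP synthase genes by complex, in late cultures (filled) above early cultures (open), with the standard error as a bar; a star marks a called difference. Early values of the bc1 complex and the oxidase lie mostly right of 0 and late values mostly left of it, and DLD1 shows the opposite.

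Several genes of iron uptake rose under late NaHS, and most copper genes rose under early NaHS. Of 33 members of an iron and copper list of 47, 7 rose and 1 fell late, 10 rose and 7 fell early, and the difference was higher in 9 and lower in 8. Over all genes 21.1% rose and 22.4% fell early, and the early falls of the list lay near that share. Without late control 3 the late rises numbered 4, and without early control 3 the lower differences numbered 5. Late rises were called in 3 of 6 siderophore uptake genes, 3 of 5 reductive uptake genes and 1 of 7 copper genes, and early rises in 5 of the 7 copper genes, with no test between these roles. Siderophore uptake had median effects of 1.47 late and -1.09 early over 6 genes, reductive uptake 1.26 late and -0.24 early over 5, and copper genes -0.12 late and 1.11 early over 7.

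ARN1 (YHL040C, chromosome VIII, 19088 to 20971), a transporter for ferrichrome-type siderophores, had 1643, 1887 and 1411 FPKM in late NaHS libraries, against 150.3, 229 and 191 FPKM in late controls, and 43.5, 40.6 and 24.4 TPM in early NaHS libraries, against 103, 114 and 119.5 TPM in early controls. Late NaHS values stood far above every late control and early NaHS values lay below every early control, a separation that the choice of named genes required. The difference was 4.49 (SE 0.309, adjusted p = 7.7e-06). FIT2, a cell wall mannoprotein that holds siderophores near the cell, had 8478, 7842 and 6689.6 FPKM in late NaHS libraries, against 800.2, 1860.5 and 1142 FPKM in late controls, and 944, 592 and 224 TPM in early NaHS libraries, against 1916, 1955 and 2406 TPM in early controls. Its early NaHS libraries differed among themselves, with library 3 lowest, and the early fall lost its call without any 1 early control and without early NaHS 2; the difference was 4.45 (SE 0.622, adjusted p = 0.000804). The multicopper oxidase FET3 and the permease FTR1, which together take up iron after it has been reduced, rose late (2.39 and 1.95) with early effects that did not pass (-0.24 and -0.79). FET3 had 2259.5, 1867 and 1932 FPKM in late NaHS libraries against 364, 426 and 343 FPKM in late controls, and its early groups overlapped. ARN2 rose late by 1.34 and CCC2, which loads copper into Fet3, by 1.26, though the CCC2 difference did not pass (adjusted p = 0.0634). SIT1, ENB1 and FIT3 did not pass at either stage. ISA1, which helps assemble iron-sulfur clusters, fell late (-1.18 late and -0.16 early), and the heme oxygenase HMX1 and the biotin permease VHT1, both known to respond to iron, lost early falls (0.47 late and -0.83 early and -0.41 late and -3.0 early).

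The letters GCACCC, the core bound by Aft1 and Aft2, the activators of the iron uptake genes, stood upstream of 18 of 32 iron and copper genes (56.2%) with an annotated window, among them all 6 siderophore and all 5 reductive uptake genes, against 7.62% of all windows. The stretches below are for the 3 list genes of highest difference (chrVIII:21171-21290, minus strand, for ARN1; chrXV:1059181-1059300, plus strand, for FIT2; chrV:461986-462105, minus strand, for FTR1), and capitals mark GCACCC or its reverse complement.
ARN1: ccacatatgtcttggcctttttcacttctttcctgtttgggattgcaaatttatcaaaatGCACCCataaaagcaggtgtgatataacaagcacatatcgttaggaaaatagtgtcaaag
FIT2: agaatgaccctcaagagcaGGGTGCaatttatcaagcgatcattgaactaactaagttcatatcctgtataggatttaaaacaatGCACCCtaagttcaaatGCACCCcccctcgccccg
FTR1: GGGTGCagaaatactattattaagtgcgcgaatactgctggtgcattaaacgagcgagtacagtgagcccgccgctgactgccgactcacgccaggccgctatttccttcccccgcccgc

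The metallothionein genes CUP1-1 and CUP1-2, near-identical copies in a repeat on chromosome VIII, lost their early rise. CUP1-2 had 15130.1, 25084 and 18086 FPKM in late NaHS libraries, against 10389, 33159 and 24034 FPKM in late controls, and 32104, 33149 and 17699 TPM in early NaHS libraries, against 1504, 2853 and 1195 TPM in early controls. The early NaHS values were far above the early controls, and the late groups overlapped. CUP1-1 and CUP1-2 carried identical late values, so they count as 1 late measurement, and the sources do not say how reads that match both were assigned. Their effects were -0.12 late and 4.21 early for CUP1-2 (difference -4.32 (SE 0.634, adjusted p = 0.00104)) and -0.12 late and 3.69 early for CUP1-1. RUF5-1 and RUF5-2, RNAs of the same repeat, and YHR054C, a partial copy of YHR056C in it, changed by 3.87, 4.09 and 3.71 early and by -0.22, -0.22 and 0.28 late. Outside the repeat, the metallothionein CRS5 (-0.28 late and 1.34 early) and the copper sensor CUP2 (-0.58 late and 1.11 early), which switches on CUP1, lost early rises as well.

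Many sulfur genes fell under late NaHS, some of them with a rise under early NaHS and some with a fall. Of 29 members of a list of 38, 15 fell and 0 rose late (limma), 13 fell and 6 rose early, and the difference was lower in 13 and higher in 4. The early rises lay near the share over all genes (21.1%). The medians were -1.42 late and -0.57 early. MET6, the methionine synthase (YER091C, chromosome V, 339864 to 342167), had 2.08, 0.975 and 2.18 FPKM in late NaHS libraries, against 293, 108 and 287 FPKM in late controls, and 17.8, 17.2 and 18.2 TPM in early NaHS libraries, against 103, 101 and 164 TPM in early controls. It fell at both stages and by more late (-6.31 in late cultures (SE 0.433, adjusted p = 0.000374) and -2.44 in early cultures (SE 0.205, adjusted p = 0.000734)), with late NaHS values near the pseudocount, so that its late effect is understated. MET17, CYS3, MET10, MET13 and SUL2 also fell at both stages with a larger late fall, at -3.14 late and -1.14 early for MET17, which fixes sulfide, -2.68 late and -1.59 early for CYS3, which makes cysteine, and -3.09 late and -0.58 early for SUL2, a sulfate permease. The methionine permease MUP1 (-1.46 late and -2.02 early) and the S-methylmethionine permease MMP1 (-1.51 late and -3.11 early) were kept falls with no called difference.

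Some genes of sulfate uptake and reduction did not follow MET6 early. Of 8 such genes, 3 rose and 3 fell early, and 5 fell late. MET14, which phosphorylates adenylyl sulfate, changed by -1.56 late and 0.75 early, MET16, which reduces the sulfate so activated, by -1.56 late and 1.04 early, and MET22, which clears the adenosine phosphate that this reduction leaves, by -1.12 late and 0.67 early; with STR3 and the low-affinity methionine permease MUP3 (-1.42 late and 0.61 early) they were the 5 reversed sulfur genes. MET16 had 24.4, 32.2 and 28.9 FPKM in late NaHS libraries, against 113, 59.5 and 88.5 FPKM in late controls, and 25.99, 26.6 and 56.5 TPM in early NaHS libraries, against 19.2, 18.2 and 20.2 TPM in early controls. Without early control 1 or 2 the early sulfur rises numbered 1 and the reversed genes 1, and without early control 3 they numbered 2 and 2, while the late falls stayed between 12 and 15. The kept falls numbered 8, and 5 without early control 1 or 3. The gained responses, 1 with every library, numbered 7, 6 and 7 without early control 1, 2 and 3. SUL1, SAH1 and ADO1 lost early falls (0.00, 0.24 and 0.14 late, against -1.14, -1.29 and -0.88 early), the last 2 being enzymes that clear the S-adenosylhomocysteine left by methylation. CYS4, the step before CYS3, fell early (-0.78) and was at 0.91 late, where it did not pass. MET28, a cofactor of the sulfur activator Met4, was left out because it was listed at 0 in all 3 late NaHS libraries, against 28.9, 63.6 and 54.4 FPKM in late controls.

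The letters CACGTG, bound by Cbf1, which brings Met4 to sulfur genes, stood upstream of 17 of the 29 sulfur genes (58.6%), against 6.23% of all windows. TGTGGC, the core for Met31 and Met32, stood in 35.3% of 34 windows of genes that fell late and rose early, against 14.2% of all windows. That class is not the sulfur list, though it holds 5 of the listed sulfur genes, and the shares of TGTGGC in other sets are not given here. The stretches are for the 3 sulfur genes of largest difference that hold CACGTG (chrV:342548-342667, minus strand, for MET6; chrXVI:877751-877870, minus strand, for MET16; chrXII:323163-323282, plus strand, for SUL2), with it in capitals. MET6 and SUL2 were kept falls and MET16 a reversed gene.
MET6: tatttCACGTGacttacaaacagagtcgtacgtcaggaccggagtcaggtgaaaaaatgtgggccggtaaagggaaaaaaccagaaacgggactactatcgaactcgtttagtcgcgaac
MET16: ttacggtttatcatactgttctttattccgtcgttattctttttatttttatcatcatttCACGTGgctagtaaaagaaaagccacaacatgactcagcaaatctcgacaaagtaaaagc
SUL2: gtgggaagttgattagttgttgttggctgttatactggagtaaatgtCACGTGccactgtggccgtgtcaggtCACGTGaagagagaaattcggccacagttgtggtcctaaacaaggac

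Many genes for synthesis of the other amino acids also fell late. Of 60 members of a list of 69, 26 fell and 2 rose late, 20 fell and 16 rose early, and the difference was lower in 27 and higher in 4, with medians of -0.65 late, -0.02 early and -0.85 for the difference. The early rises numbered 8 without early control 1 or 2, 10 without early control 3 and 25 without early NaHS 3, and 9 with no scaling. The early falls numbered 13 and 12 without early control 2 and 3. The gained responses, 10 with every library, numbered 15, 15 and 16 without early control 1, 2 and 3 and 6 without early NaHS 3, while the lower differences stayed between 21 and 29. The branched-chain aminotransferases parted by compartment. BAT1, the mitochondrial enzyme (YHR208W, chromosome VIII, 517532 to 518713), had 531, 529 and 494 FPKM in late NaHS libraries, against 5459, 8933 and 6997 FPKM in late controls, and 275, 255 and 206 TPM in early NaHS libraries, against 404, 407 and 587 TPM in early controls. BAT2, the cytosolic enzyme (YJR148W, chromosome X, 705744 to 706874), had 1853, 1624 and 1241 FPKM in late NaHS libraries, against 257, 294 and 264 FPKM in late controls, and 355, 425 and 326 TPM in early NaHS libraries, against 734, 655 and 641 TPM in early controls. The late groups were far apart for both genes and in opposite directions, at -3.78 for BAT1 and 2.49 for BAT2, while both fell early (-0.65 and -0.62). The differences were -3.13 (SE 0.292, adjusted p = 7.07e-05) and 3.11 (SE 0.247, adjusted p = 2.58e-05).

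Other branched-chain genes, ILV3, ILV6, LEU4 and LEU9, were kept falls. Histidine genes HIS4, HIS5 and HIS7 were gained falls (-2.17, -1.94 and -1.19 late, with early values of -0.36, 0.68 and 0.40 that did not pass), and HIS1, the first step, was reversed (-1.63 late and 0.87 early, difference -2.50 (SE 0.298, adjusted p = 0.000325)). ARG4 and ARG7, GLT1, HOM2, ARO1, ARO4 and LYS1 were further gained falls. The asparagine synthetase ASN1 (-0.05 late and 1.32 early), the first aromatic enzyme ARO3 (-0.55 late and 1.07 early), HOM3 (-0.42 late and 1.28 early) and the activator GCN4 (0.00 late and 0.97 early) lost early rises. TGACTC, the core bound by Gcn4, stood upstream of 39 of the 60 genes (65.0%), against 12.7% of all windows, and the stretches of 3 list genes with large differences are shown with it, or its reverse complement, in capitals (chrVIII:517301-517420, plus strand, for BAT1; chrIX:142571-142690, plus strand, for HIS5; chrV:265959-266078, minus strand, for HIS1).
BAT1: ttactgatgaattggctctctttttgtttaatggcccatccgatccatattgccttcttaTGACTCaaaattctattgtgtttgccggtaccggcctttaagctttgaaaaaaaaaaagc
HIS5: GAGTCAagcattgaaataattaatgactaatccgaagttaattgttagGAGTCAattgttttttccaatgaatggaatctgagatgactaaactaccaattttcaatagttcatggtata
HIS1: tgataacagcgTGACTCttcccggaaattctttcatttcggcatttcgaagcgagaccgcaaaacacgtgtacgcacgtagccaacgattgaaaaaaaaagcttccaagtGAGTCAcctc

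Most chaperone genes that rose early also rose late, several by less. Heat shock factor switches on chaperones that refold damaged proteins. Of 25 members of a list of 32, 14 rose and 3 fell late and 21 rose early, with medians of 0.99 late, 1.64 early and -0.85 for the difference. The 14 late rises were all kept responses, and the difference was lower in 11 genes and higher in 0 (limma), and in 0 also in each of the 12 fits with a library left out. Without late NaHS 3 the late rises and the kept responses numbered 9. SSA4, the inducible cytosolic Hsp70 (YER103W, chromosome V, 364589 to 366517), had 148, 286 and 266 FPKM in late NaHS libraries, against 60.5, 42.4 and 56.97 FPKM in late controls, and 198, 211 and 229 TPM in early NaHS libraries, against 64.3, 65.8 and 70.6 TPM in early controls. Its effects were 2.04 late and 1.91 early, and the difference of 0.13 (SE 0.312, adjusted p = 0.804) did not pass. HSP104, which pulls proteins out of aggregates, had 87.2, 123 and 149 FPKM in late NaHS libraries, against 28.01, 9.61 and 36.2 FPKM in late controls, and 555, 537 and 1034 TPM in early NaHS libraries, against 239, 211 and 213 TPM in early controls (effects 2.36 late and 1.87 early; the late call was lost without any 1 late NaHS library). MDJ1, the mitochondrial partner of Hsp70, changed by 2.89 late and 1.96 early, and SSA2, a near copy of SSA1, by 1.61 late and 1.71 early.

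In the Hsp90 group 5 of 7 genes had a lower difference, and 3 without any 1 early control, late control 1 or 3 or late NaHS 1 or 2. CPR6, HSP82 and HCH1, and the Hsp70 exchange factor FES1, rose at both stages but less late (1.12 late and 2.70 early for CPR6, 1.38 late and 2.32 early for HSP82, 0.62 late and 1.64 early for HCH1 and 1.07 late and 2.62 early for FES1, each difference called). SSE1 lost its early rise (0.43 late and 2.23 early, difference -1.81 (SE 0.428, adjusted p = 0.0136)), as did HSC82 and the mitochondrial chaperonin HSP10; without any 1 early control the lost responses of the list numbered 1. Another 3 went the other way: HSP12, a membrane-protecting protein, HSP26, a small chaperone, and SBA1, an Hsp90 partner, were gained falls, at -3.15, -2.22 and -0.93 late. Without early NaHS 3 the gained responses of the list numbered 1 and the reversed genes 1. HSP12 had 60.9, 152 and 119 FPKM in late NaHS libraries, against 657, 857 and 1325 FPKM in late controls, and 2131, 2578 and 3790.3 TPM in early NaHS libraries, against 4665, 4586 and 4346 TPM in early controls. HSP12 and HSP26 are known targets of the general stress factors Msn2 and Msn4 as well.

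The letters GAANNTTC, a minimal heat shock element, stood upstream of 13 of 25 listed genes (52.0%) and of 33.8% of 71 kept rises, against 19.2% of all windows, 14.9% of 154 lost rises and 8.82% of 34 genes that fell late and rose early. Stretches of the kept genes HSP104 and SSA2 are shown with it in capitals (chrXII:88266-88385, plus strand, for HSP104; chrXII:97631-97750, minus strand, for SSA2).
HSP104: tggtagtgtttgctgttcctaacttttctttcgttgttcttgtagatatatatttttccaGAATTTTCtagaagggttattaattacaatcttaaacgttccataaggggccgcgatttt
SSA2: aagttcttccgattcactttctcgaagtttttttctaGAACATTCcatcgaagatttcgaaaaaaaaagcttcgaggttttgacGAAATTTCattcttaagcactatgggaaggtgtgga

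**Figure D4:**
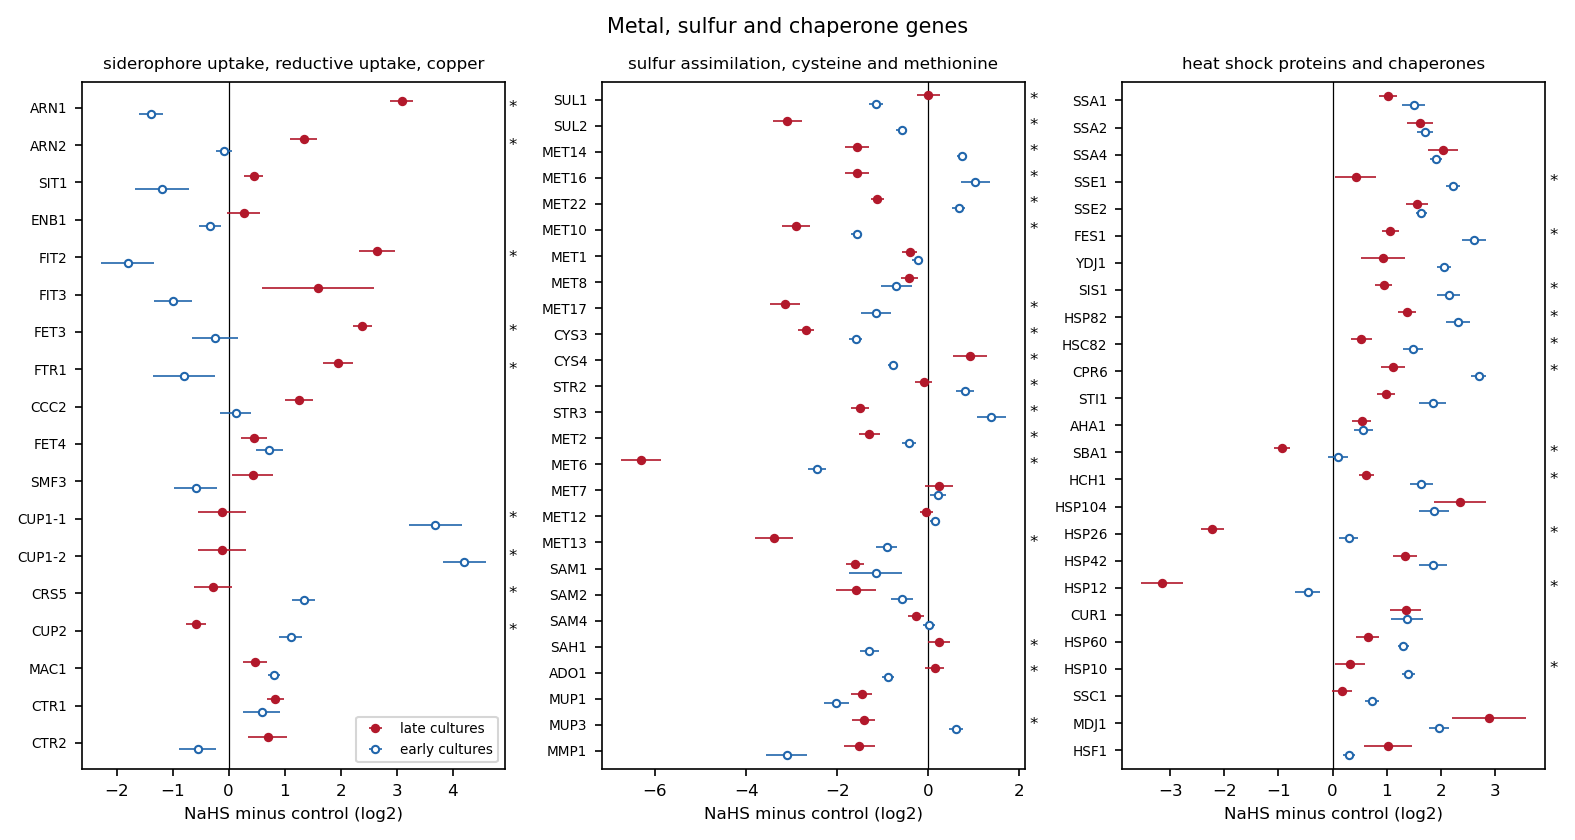
NaHS minus control on the log2 scale for metal, sulfur and chaperone genes in late cultures (filled) above early cultures (open), with the standard error as a bar; a star marks a called difference. ARN1, FIT2, FET3 and FTR1 lie right of 0 late, CUP1-1 and CUP1-2 right of 0 early, MET6 at -6.31 late, and most chaperones right of 0 at both stages.

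Of the kept responses 191 were falls, and the 5 with the largest effect in the stage where it was smaller were the sulfur gene MET6, given above, and ICL1, MLS1, CTT1 and TKL2, enzymes of the glyoxylate cycle, oxidant defence and the pentose phosphate pathway. Of 19 TCA and glyoxylate cycle genes, 8 fell late and 13 fell early, 7 of them at both stages, and 1 had a called difference (between 1 and 4 with a library left out; 4 without early NaHS 3). ICL1, the isocitrate lyase, had 18.6, 18.1 and 19.6 FPKM in late NaHS libraries, against 512, 305 and 492 FPKM in late controls, and 1086, 1504 and 198 TPM in early NaHS libraries, against 5317, 5206 and 5180.3 TPM in early controls. ICL1 changed by -4.46 in late cultures (SE 0.236, adjusted p = 0.000172) and -2.67 in early cultures (SE 0.696, adjusted p = 0.0254), and the difference of -1.79 (SE 0.797, adjusted p = 0.139) did not pass. Early NaHS 3 was far below the other 2 early NaHS libraries, and without it the ICL1 difference passed (adjusted p = 0.000406), as in no other of the 18 alternatives run for it (highest adjusted p = 0.249). The early call of ICL1 was lost without any 1 early control. The malate synthase MLS1 changed by -2.59 late and -3.35 early and catalase T, CTT1, by -3.53 late and -3.88 early. CTT1 had 2.81, 3.28 and 3.01 FPKM in late NaHS libraries, against 34.5, 41.2 and 62.96 FPKM in late controls, and 35.6, 40.1 and 21.3 TPM in early NaHS libraries, against 589, 508 and 608 TPM in early controls. TKL2, a transketolase whose locus also holds the dubious frame YBR116C, fell by less late (-3.34 late and -4.74 early, difference 1.40 (SE 0.216, adjusted p = 0.00142)). Biotin genes BIO2, BIO3, BIO4 and BIO5 were kept falls too, smaller late in BIO2 and BIO5 by a called difference, with late effects of -1.63, -1.81, -1.0 and -1.16 against -3.17, -2.82, -1.41 and -3.83 early. The thiamine gene THI4 fell more late (-4.25 late and -1.33 early), and the vitamin B6 genes SNZ2 and SNZ3, near-identical copies, were gained falls. In the 18 vitamin genes the late falls numbered 8 and the kept responses 5, and without any 1 late NaHS library 4 and 2.

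Genes for using ethanol, acetate and other non-sugar carbon fell early and mostly did not pass late. Of 19 members of that list of 28, 3 fell late and 14 fell early, the difference was higher in 9 and lower in 1, and the medians were -0.37 late and -1.55 early. Without early control 1 or 2 the early falls numbered 9. The late falls numbered 0 without late NaHS 1 and 1 without late control 3, late NaHS 2 or late NaHS 3. ADH2, which oxidises ethanol (YMR303C, chromosome XIII, 873291 to 874337), had 89.7, 106 and 114 FPKM in late NaHS libraries, against 98.98, 176 and 124 FPKM in late controls, and 185, 225 and 36.9 TPM in early NaHS libraries, against 2829, 2905 and 2895 TPM in early controls. The early NaHS values were far below all early controls and the late groups overlapped, giving a difference of 4.01 (SE 0.725, adjusted p = 0.00346). ACS1 and ACS2, which make acetyl-CoA, the acetate permease ADY2 and the gluconeogenic PCK1 and FBP1 were also lost falls, at -0.94, 0.10, 0.59, 0.35 and 0.31 late and at -3.45, -2.56, -2.18, -1.56 and -2.10 early. The mitochondrial aldehyde dehydrogenase ALD4 fell at both stages and less late (-1.02 late and -3.38 early). The lost fall of largest difference was AQY1, a water channel, which had 23.5, 21.1 and 26.1 FPKM in late NaHS libraries, against 28.98, 51.7 and 31.5 FPKM in late controls, and 29.98, 29.8 and 9.91 TPM in early NaHS libraries, against 715, 816 and 876 TPM in early controls (difference 4.32 (SE 0.497, adjusted p = 0.000259)). Of the lost falls named by rule, ADH2 came next, then YLL053C (described beside AQY2), YDL023C (-0.15 late and -2.98 early), which has no entry in the reference annotation, and RKI1 (0.65 late and -2.14 early), of the pentose phosphate pathway. Whether YDL023C overlaps another gene, with which it could share reads, was therefore not assessed.

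Among cytosolic ribosomal protein genes more fell than rose early, and few passed late. Of 132 members of 138, 1 fell and 2 rose late, 40 fell and 8 rose early, and the difference was higher in 32 and lower in 3. Over all genes 22.4% fell and 21.1% rose early. The medians were 0.10 late and -0.31 early, and 30 were lost falls. These counts moved with the scaling and with single libraries. With no scaling 69 fell and 4 rose early and 50 differences were higher, and the higher differences numbered 18 without early control 3 or late control 3, 20 without early NaHS 2 or late NaHS 3 and 21 without early NaHS 1. The lost responses, 33 in all, numbered between 18 and 38. The early falls numbered 25 without early control 3, 26 without early NaHS 2 and 62 without early NaHS 3. RPL5, a protein of the large subunit, had 4658, 2725 and 5344 FPKM in late NaHS libraries, against 3709, 4169.9 and 3788 FPKM in late controls, and 205, 164 and 155 TPM in early NaHS libraries, against 614, 660.3 and 783 TPM in early controls (difference 1.76 (SE 0.336, adjusted p = 0.00473)). Mitochondrial ribosomal proteins had 1 called difference in 62 genes and ribosome assembly genes 1 in 22, with up to 4 and up to 2 when a library was left out.

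Gained falls were led by SIP18, a protein of salt and drying stress (YMR175W, chromosome XIII, 611016 to 611255). SIP18 had 12.03, 8.41 and 16.4 FPKM in late NaHS libraries, against 834, 2235 and 1715 FPKM in late controls, and 2499, 2404 and 4597 TPM in early NaHS libraries, against 3485, 3052 and 3063 TPM in early controls. Late NaHS values stood far below all late controls, the early groups overlapped, and the difference was -7.04 (SE 0.532, adjusted p = 1.73e-05). FMP46, a mitochondrial protein, had 15.8, 19.3 and 15.7 FPKM in late NaHS libraries, against 176, 249.5 and 203 FPKM in late controls, and 677, 717 and 849 TPM in early NaHS libraries, against 742, 749 and 775 TPM in early controls (difference -3.81 (SE 0.225, adjusted p = 3.4e-06)). MMF1, of the mitochondrial matrix, had 66.3, 76.1 and 2.48 FPKM in late NaHS libraries against 535, 892 and 685 FPKM in late controls, and the late fall lost its call without any 1 late control and without late NaHS 1 or 2. PAI3, an inhibitor of vacuolar proteinase A, changed by -2.68 late and 0.70 early, without a late call when late control 3 was left out, and YOR385W by -4.18 late and 1.13 early. Gained rises included cell wall genes. Of 26 wall genes of a list of 34, 9 rose and 2 fell late, 5 rose and 6 fell early, and the difference was higher in 9 and lower in 2. Over all genes 5.97% rose and 13.1% fell late, and 21.1% rose and 22.4% fell early. The early wall counts thus lay near the shares over all genes. CWP2, a wall mannoprotein, had 3374, 5019 and 7159 FPKM in late NaHS libraries, against 991, 1546 and 1073 FPKM in late controls, and 274, 303 and 535 TPM in early NaHS libraries, against 661, 746 and 828 TPM in early controls (difference 2.85 (SE 0.441, adjusted p = 0.00142)). PST1 (2.47 late and -0.01 early), GAS1 (1.68 late and -0.08 early) and CCW12 (1.45 late and 0.02 early) were gained rises and CWP1 (1.22 late and -3.22 early) and SCW4 (1.31 late and -1.19 early) were reversed. The wall rises late numbered 5 without late control 3 or late NaHS 2. Between 3 and 5 wall genes were gained in any fit with a library left out, the early wall falls numbered 2 without early control 3, and the early wall rises 9 without early NaHS 3. SOM1, a subunit of a mitochondrial inner membrane peptidase, also rose late (2.25 late and -0.44 early), a call lost without any 1 late NaHS library.

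The remaining lists are given by their counts of called differences. Proteasome genes had 6 lower differences and 0 higher among 32 (limma; with 1 lower under no scaling, 3 under upper-quartile scaling and between 2 and 10 with a library left out; 2 without any 1 early control, late control 3 or late NaHS 2, 3 without late NaHS 3 and 10 without late control 2), led by RPN13 (-0.45 late and 0.82 early). Oxidant defence had 7 lower and 5 higher of 33, stress and stationary phase genes 6 lower and 4 higher of 32, vacuole and autophagy genes 8 lower and 2 higher of 45, nitrogen use 1 lower and 4 higher of 30, nucleotide synthesis 2 lower and 5 higher of 22, and sterol synthesis 1 lower and 3 higher of 21. With a library left out these counts moved as well. Higher differences in oxidant defence numbered 1 without early control 3 and 2 or 3 without any other library than early NaHS 3 or late control 2. In stress genes they numbered 7 without late control 2, in nitrogen use 2 without early control 1 or 3 or late NaHS 1, in nucleotide synthesis 3 without early control 2, and in sterol synthesis 1 without any 1 early control, early NaHS 2, late control 3 or late NaHS 1 or 3. Lower differences of the vacuole list numbered 5 without any 1 early control or late NaHS 3, and its higher ones 1 without any 1 early control, early NaHS 1, late control 3 or late NaHS 1. The lower differences of nitrogen use ran from 0 to 3 and those of nucleotide synthesis from 1 to 4, both highest without early NaHS 3 (for nucleotides also without late control 1). Glycolysis and fermentation had 1 lower and 2 higher of 22, the pentose phosphate pathway 1 lower and 3 higher of 12, cell cycle and chromatin 2 lower of 14, RNA polymerases I and III 2 higher of 12, phosphate 1 lower and 2 higher of 9, fatty acids 1 higher of 9, hexose transport 1 higher of 8, protein folding in the endoplasmic reticulum 1 lower and 2 higher of 8, lifespan signalling 1 lower of 7, and trehalose and glycogen 2 higher of 6. Each of these 10 lists had between 1 and 4 called differences and between 0 and 5 with a library left out, and the higher differences of RNA polymerases I and III numbered 0 or 1 in all 12 such fits. Over all genes 14.0% were lower and 10.4% higher.

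**Figure D5:**
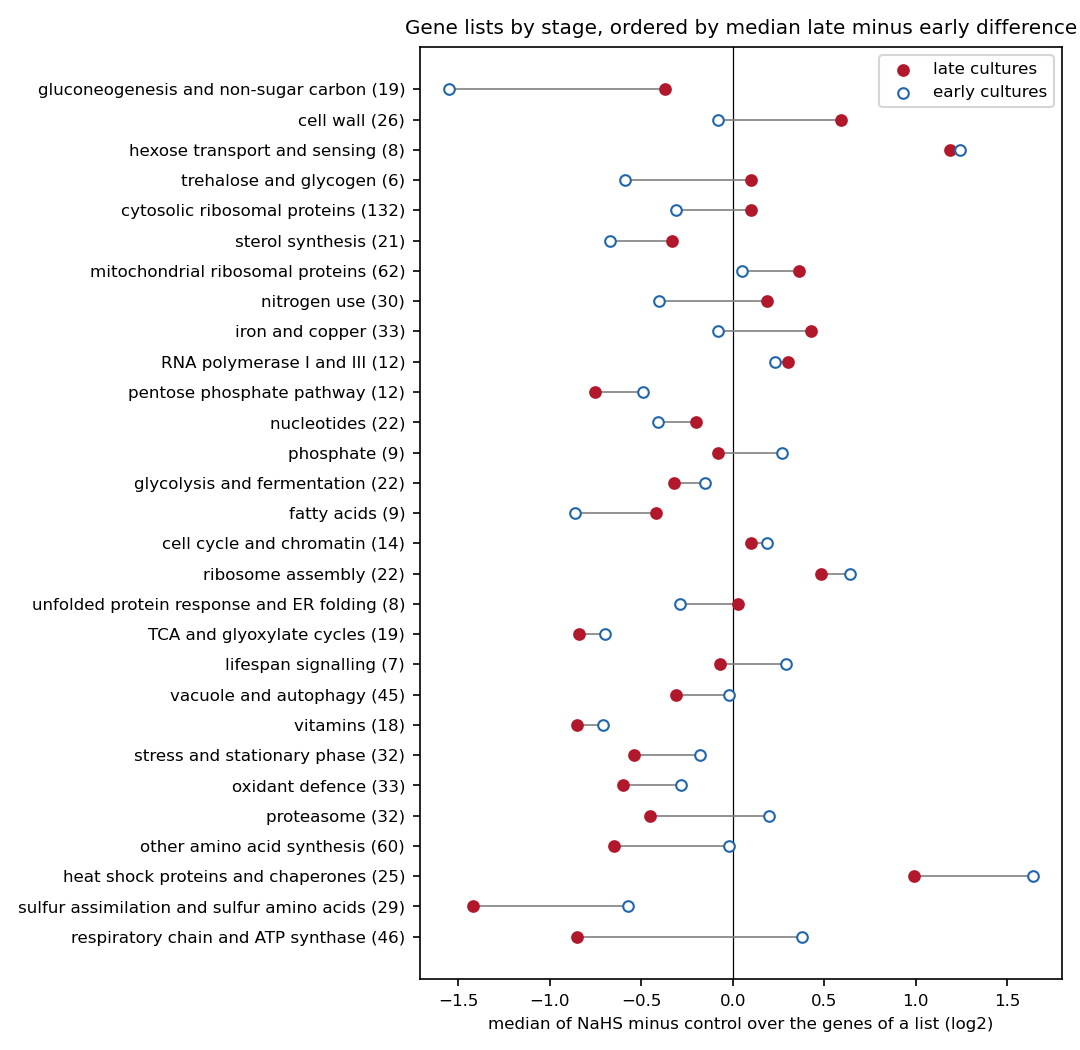
Median NaHS minus control (log2) over the members of each gene list, with the number of members in brackets, in late (filled) and early (open) cultures, ordered by the median late minus early difference. The respiratory chain lies at -0.85 late and 0.38 early, heat shock genes stay right of 0 at both stages, and gluconeogenesis lies at -0.37 late and -1.55 early.

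Gene length moved with the difference. Split by annotated length into 4 bins of about equal size, the shortest protein-coding genes (159 to 618 bases, 742 genes) had a median difference of -0.27 with 145 lower and 41 higher, and the longest (1410 to 6645 bases, 739 genes) a median of 0.24 with 65 lower and 122 higher. The bin medians were -0.08, -0.02, -0.01 and 0.09 late and 0.07, 0.04, -0.12 and -0.21 early, from shortest to longest. Genes that fell late and rose early had a median length of 760 bases and lost rises 798, against 963 over all genes with a length. Small RNAs went the same way: 26 snoRNA and snRNA rows had a median of -0.64 late and 0.53 early. The part of gene length in the results above was not tested. The median span was 475.5 bases in respiratory genes and 797 bases in cytosolic ribosomal protein genes.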

How the data were processed

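Total RNA was made into TruSeq libraries and sequenced in pairs on a NovaSeq 6000, per the labels. SeqPrep and Sickle trimmed reads and TopHat aligned them with orientation mode, per the labels' protocols, and Bowtie 0.12.2 and the R64 reference are named in the submitters' processing notes. No source used here names the quantifier or says whether it used strand, so overlapping and antisense genes and near-identical copies (110 members overlap another annotated gene and 111 have a copy of at least 95% identity) are uncertain. Overlaps and copies were sought only among annotated genes, so members without an annotation entry are not in these counts. The authors deposited TPM in the early table, a unit read from its values, and FPKM in the late table per the file headers. No read counts were used, so library depth is unknown and no counting error can be set.

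Within each table, values were divided by median-ratio size factors and turned to log2 of the value plus 1, which understates changes of low genes. Rows in both tables with a mean of at least 1 in each (5165) were fitted with limma 3.58.1 in R 4.3.3 (moderated test with a trend, 2-sided, Benjamini-Hochberg adjustment over all rows fitted, threshold 0.05): each stage on its 6 libraries and the difference of effects on all 12. The deposited values are printed unscaled; log2 effects are scaled. A 0 took out 96 of the 3278 rows whose mean reached 10 in each table. On simulated data of 5165 genes the difference test recovered 32 of 100 genes moved by 1 and 76 of 100 moved by 2 on the log2 scale, 0 with the wrong sign, with 9 unchanged genes called. The simulated noise was independent between genes, with spreads drawn at random from members. It held no library that stands apart and no spread that depends on level, so these counts do not give the recovery or false calls in the real data.

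The members and the gene lists were chosen with earlier results of these data known. Named by rule were, in each direction, the 5 reversed and kept genes with the largest smaller effect and the 5 lost and gained genes of largest difference. All of these were taken only where values did not overlap in the stages called. In each list up to 3 genes of largest called difference and 1 kept gene were also named. Other genes were named after their values were seen. Gene names, positions and sequences are those of RefSeq's R64 annotation, which matched 2967 of 3182 members; 3 listed names did not match. Letters were searched on both strands of 500 bases upstream of the annotated start. Alternatives were pseudocounts of 0.1 and 5, no scaling, upper-quartile scaling, a minimum mean of 50, a minimum change of 1, members fitted alone, a joint fit, a replicate block and each library left out; counts per list with a library left out or another scaling were added after seeing the data. Within a stage, the deviations of control and NaHS libraries of equal number had correlations of -0.085, 0.006 and 0.016 early and -0.248, 0.154 and 0.075 late. Late libraries of unequal number ranged from -0.331 to 0.29, so these values can neither show nor exclude pairing by number.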

Additional observations from a re-analysis of the deposited data

Results flagged for a closer look

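The difference between stages was itself tested, and it passed for 774 genes, with 59 of them reversed. Among the genes named by rule, the stages differed by the following late minus early log2 differences, each past the threshold with every library left out in turn. Genes that rose late and fell early were ARO9 at 8.03, ARN1 at 4.49, FIT2 at 4.45, AQY2 at 3.85 and SUT1 at 3.52. Genes that fell late and rose early were YPR169W-A at -3.92, CMK2 at -3.24, YMC2 at -3.20, STR3 at -2.89 and MRA1 at -2.43.

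Kept responses whose size differed were HAP4 at 1.78, TKL2 at 1.40 and MET6 at -3.87. Lost rises were CUP1-2 at -4.32, RUF5-2 at -4.31, RUF5-1 at -4.08, CUP1-1 at -3.81 and YHR054C at -3.43, all from one repeat. Lost falls were AQY1 at 4.32, ADH2 at 4.01, YLL053C at 3.01, YDL023C at 2.83 and RKI1 at 2.78.

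Gained rises were DLD1 at 3.12, CWP2 at 2.85, FTR1 at 2.74, SOM1 at 2.68 and FET3 at 2.64. Gained falls were SIP18 at -7.04, YOR385W at -5.31, MMF1 at -5.02, FMP46 at -3.81 and PAI3 at -3.38.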

How the results depend on the processing

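The single-gene values followed were effects of genes named by rule, and only those that passed with the main settings. Most were chosen for large effects, so a change of sign was unlikely from the start. None changed sign in any alternative. Of 1972 single-gene values under other settings 1858 kept their call and 114 lost it. Of 2100 with a library left out 1803 kept it and 297 lost it. Pseudocounts, both scalings and fitting the members alone left every class count within 1.5 times, while the no-scaling choice turned the split of called differences to 547 higher and 300 lower. A minimum change of 1 gave 516 early calls, 20 reversed, 200 lost and 113 kept responses. A replicate block gave 526 called differences, 356 late calls, 28 reversed and 146 kept responses, though pairing by number was neither shown nor excluded. The joint fit gave 967 late calls. A mean of at least 50 left 1534 genes, with 460 differences, 709 early and 344 late calls and 37 reversed, 211 lost and 143 kept responses. The cause of these shifts was not tested, beyond fewer genes in the last. With each library left out in turn, called differences ranged from 531 to 825, early calls from 830 to 2036, late calls from 301 to 615, reversed genes from 25 to 102, lost from 216 to 417, gained from 94 to 189 and kept from 143 to 360. Depth is unknown, and 3 libraries a group limit what can be called: a p that misses the threshold does not show that stages acted alike.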

Other observations

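Of the 96 rows left out for a 0, 15 were listed at 0 in all 3 late NaHS libraries and above 0 in all 3 late controls, and 5 the opposite way. No fold is given, since a 0 in a table without counts can be a failed estimate. The rows at 0 under late NaHS included AAC1, a mitochondrial carrier of ADP and ATP (110, 244 and 136 FPKM in late controls), and GRE1, a protein of drying stress (148, 329 and 190 FPKM in late controls). The other 5 were HSP78, the mitochondrial relative of Hsp104 (13.3, 25.5 and 22.1 FPKM in late NaHS libraries), the mitochondrial iron carrier MRS4 (58.9, 55.0 and 24.1 FPKM in late NaHS libraries), ARO10, PUS6 and YPK2. Early, HSP78 had 140, 131 and 284 TPM in NaHS libraries against 52.7, 48.1 and 47.0 TPM in controls, and MRS4 had 55.8, 62.0 and 22.6 TPM in NaHS libraries against 293, 287 and 321 TPM in controls.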
